A study of Rattus norvegicus with 44 samples.

Results

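The MHC class II genes examined here were 6 named genes of the 18347 gene IDs measured in the dentate gyrus (DG) of the rat hippocampus. RT1-Ba and RT1-Bb encode the α and β chains of one class II molecule, RT1-Da and RT1-Db1 those of a second, Cd74 encodes the invariant chain, and Ciita encodes the class II transactivator. They were chosen by name with their normalized values in the 4 groups and in each rat already known, so the values of these 6 genes are a description and carry no test. Of the 6, 5 had a mean over all rats of at least 5 normalized units and entered the fit across genes, and Ciita, with a mean below that minimum, did not.

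RNA-seq was run on poly(A) RNA from the DG of 1 hemisphere in each of 44 male F344 rats. The young group (YNG, n = 10) was 6 months old and received vehicle. The older rats were 12 months old when dosing began and about 18 months old at collection. They received vehicle (AV, n = 12), ABT-263 at 12 mg/kg (AA, n = 11), or dasatinib at 1.2 mg/kg with quercetin at 12 mg/kg (ADQ, n = 11). In the older rats doses were given by oral gavage for 5 days per cycle with breaks of 2 weeks. There were 8 cycles before behavioral testing and a last round 2 weeks before collection. The study's methods give no dosing schedule for the young rats. ABT-263 inhibits BCL-2 family proteins, dasatinib is a tyrosine kinase inhibitor and quercetin is a plant flavonoid. Both regimens are used as senolytics, which are agents meant to remove senescent cells. The sample labels name only young rats (6 months) and middle-aged rats (12 months). They thus give 12 months for all of the older rats, and the age at collection is from the study's methods. The 3 older groups were taken from a deposited table of the rats' attributes. Values are normalized units, the estimated reads of a gene divided by a factor for the library, and 1 read was worth 0.652 to 1.504 units over the 44 libraries. Granule cell genes were present in every rat, with Prox1 at 608.7 units or more and C1ql2 at 1266 units or more, while the granule cell marker Lct was at 0 in 17 rats. The means over all rats were 2515 units for Prox1 and 5952 for C1ql2. The sum of the granule cell genes ran from 9457 to 14070 units in YNG and 6244 to 13430 in AV. It ran from 2940 to 13530 in AA, with a median of 11050, and from 9621 to 12620 in ADQ. At least 1 AA rat thus had far fewer granule cell transcripts than the others.

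Class II molecules present peptides taken from endosomes to CD4 T cells. The invariant chain Cd74 fills the peptide groove of a new α and β pair and guides it to the endosome, where cathepsins trim the chain and the DM molecule exchanges the remnant for a peptide. Transcription of the chains and of Cd74 depends on Ciita, which binds no DNA itself but docks on factors that sit on the X and Y boxes of their promoters. In healthy brain tissue class II transcripts are scarce and come mostly from microglia, macrophages at the borders of the brain and dendritic cells.

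The promoter letters are shown because Ciita is thought to act on these genes through shared boxes. RefSeq promoter entries of build GRCr8 were found for 5 of the 6 genes (all but Ciita), and 3 neighbors of the same region, RT1-DMa of the DM molecule and RT1-DOb and RT1-DOa of the DO molecule, are shown beside them. Each stretch below runs from base -130 to base -31 relative to the annotated start, on the strand of the gene. The intervals are chr20:4515285-4515384 (plus strand) for RT1-Da, chr20:4560193-4560292 (minus) for RT1-Db1, chr20:4576927-4577026 (plus) for RT1-Ba, chr20:4604149-4604248 (minus) for RT1-Bb, chr18:56527076-56527175 (plus) for Cd74, chr20:4712366-4712465 (minus) for RT1-DMa, chr20:4627554-4627653 (minus) for RT1-DOb and chr20:4758454-4758553 (minus) for RT1-DOa. Capitals mark exact matches to CTGATTGG, the core of the Y box, and to AGCAAC, a part of the X box.
RT1-Da: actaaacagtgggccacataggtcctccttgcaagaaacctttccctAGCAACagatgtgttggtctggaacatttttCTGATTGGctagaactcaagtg
RT1-Db1: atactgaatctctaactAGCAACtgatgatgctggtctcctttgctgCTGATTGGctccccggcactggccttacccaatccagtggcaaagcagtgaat
RT1-Ba: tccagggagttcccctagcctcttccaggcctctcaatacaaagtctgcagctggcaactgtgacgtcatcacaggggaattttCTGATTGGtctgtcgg
RT1-Bb: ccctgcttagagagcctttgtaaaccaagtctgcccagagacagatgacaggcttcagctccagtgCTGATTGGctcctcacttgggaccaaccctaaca
Cd74: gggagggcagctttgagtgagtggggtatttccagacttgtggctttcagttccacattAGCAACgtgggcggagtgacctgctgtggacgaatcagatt
RT1-DMa: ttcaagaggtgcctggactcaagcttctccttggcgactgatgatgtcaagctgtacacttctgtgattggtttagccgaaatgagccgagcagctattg
RT1-DOb: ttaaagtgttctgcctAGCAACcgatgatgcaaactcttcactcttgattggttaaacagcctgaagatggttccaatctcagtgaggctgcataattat
RT1-DOa: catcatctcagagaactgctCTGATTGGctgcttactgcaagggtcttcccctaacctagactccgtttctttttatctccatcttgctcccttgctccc

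CTGATTGG was found in all 4 chain promoters, at -52 to -45 in RT1-Da, -83 to -76 in RT1-Db1, -46 to -39 in RT1-Ba and -64 to -57 in RT1-Bb. AGCAAC was found upstream of it in RT1-Da, at -83 to -78, and in RT1-Db1, at -113 to -108. In Cd74 AGCAAC was found at -71 to -66. The boxes were not particular to the 6 genes: RT1-DOa held AGCAAC at -141 to -136, just outside the stretch shown, and CTGATTGG at -110 to -103, RT1-DOb held AGCAAC at -114 to -109, and RT1-DMa held neither. Among 33469 RefSeq promoters of 300 bases each, searched on both strands, 3.5% held CTGATTGG and 14.7% held AGCAAC, and the letters of these 2 motifs did not overlap where both were found. The arrangement seen in RT1-Da, RT1-Db1 and RT1-DOa, AGCAAC followed by CTGATTGG within 1 to 40 bases on the strand of the gene, was present in 15 promoters (0.0448%). These matches are letters in a window and not measured sites. They are letters of the reference build, and the promoters of the F344 rats studied were not examined.

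Cd74 had its lowest levels in young rats. Its lowest, median and highest values were 24.6, 75.5 and 108 units in YNG and 83.3, 248 and 4005 units in AV. They were 56.2, 160 and 1691 units in AA and 91.7, 128 and 238 units in ADQ. Above the highest YNG rat lay 10 of 12 AV rats, 8 of 11 AA rats and 8 of 11 ADQ rats, and the ranges of the 3 older groups overlapped. In tissue RNA a change in the number of cells that carry a transcript and a change in the transcript per cell cannot be told apart.

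The B chains followed the same order of group medians as Cd74. RT1-Ba had a lowest, median and highest value of 0, 8.21 and 15.1 units in YNG and 7.20, 27.8 and 507 units in AV. In AA these were 4.84, 24.4 and 278 units, and in ADQ they were 6.26, 21.99 and 31.01 units. Its highest YNG value was passed by 10 AV, 8 AA and 8 ADQ rats. RT1-Bb had 0.702, 10.7 and 16.6 units in YNG, 8.23, 47.7 and 674 units in AV, 4.84, 25.96 and 381 units in AA, and 9.68, 22.1 and 43.6 units in ADQ. Its highest YNG value was passed by 10 AV, 9 AA and 8 ADQ rats. For both B chains the AA and ADQ medians were nearer to each other than either was to that of YNG, with overlapping ranges.

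RT1-Da, the D α chain, had a lowest, median and highest value of 6.32, 10.6 and 24.02 units in YNG and 16.5, 43.6 and 893 units in AV. They were 8.15, 26.98 and 383 units in AA and 18.4, 29.1 and 51.5 units in ADQ. Here ADQ had a slightly higher median than AA, and 11 of 12 AV, 7 of 11 AA and 10 of 11 ADQ rats exceeded every YNG rat. RT1-Db1, the D β chain, had 0, 2.36 and 13.4 units in YNG, 6.80, 26.04 and 489 units in AV, 1.94, 13.8 and 296 units in AA, and 3.16, 13.4 and 24.8 units in ADQ. Its AA and ADQ medians were almost equal, and 9 AV, 6 AA and 6 ADQ rats exceeded every YNG rat. RT1-Db1 has a near-identical copy, RT1-Db2, that was not analysed here, so its reads may be shared with that copy.

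Ciita did not follow the order of group medians of the chains. It had a lowest, median and highest value of 0.674, 2.36 and 3.67 units in YNG, 0.000517, 3.14 and 36.03 units in AV, 0.914, 3.59 and 12.2 units in AA, and 1.001, 4.96 and 9.29 units in ADQ. Its highest median was in ADQ and not in AV, and only 4 AV, 5 AA and 7 ADQ rats exceeded every YNG rat. The 2 highest Ciita values were in AV rat 3999 and AA rat 4070, which were also the 2 highest rats for Cd74 and the chains. The YNG values correspond to 1 to 4.8 estimated reads per library, so differences of this size in Ciita are close to what single reads give.

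**Figure D1:**
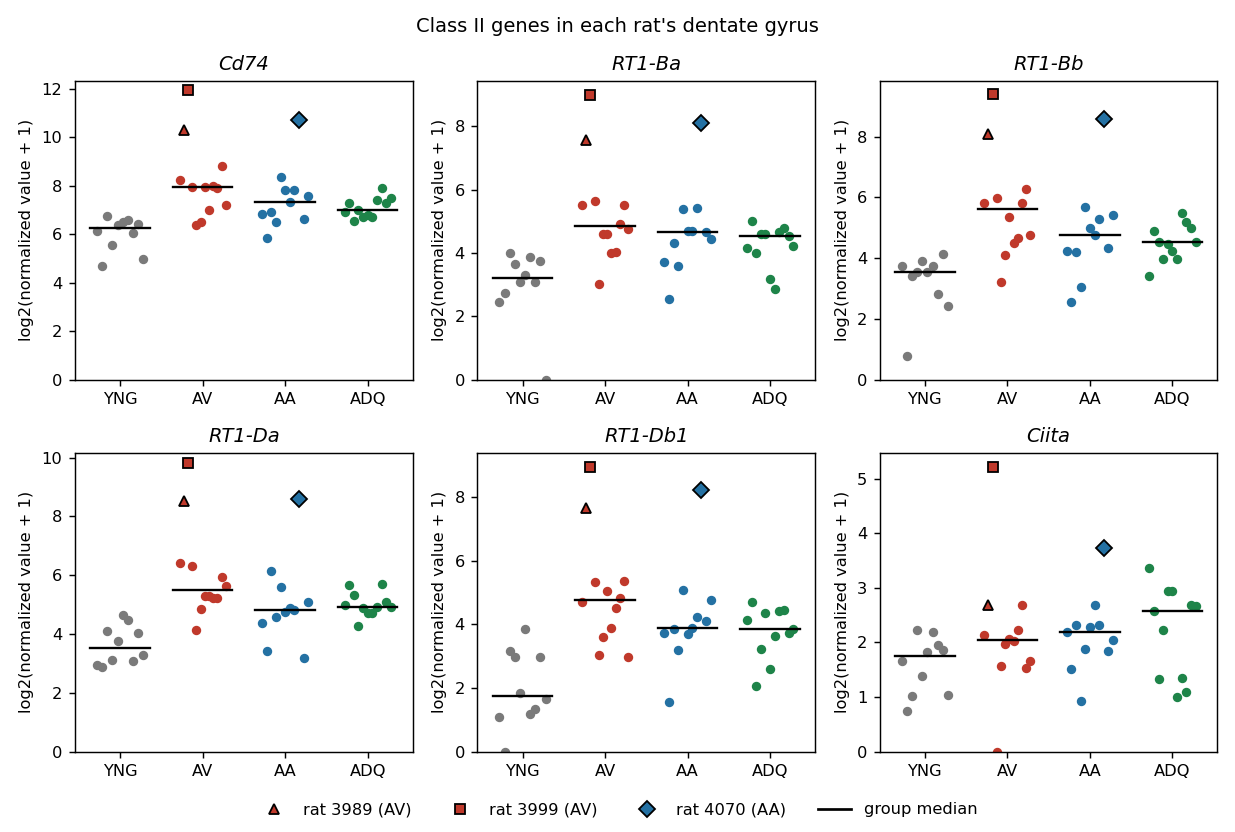
Normalized level of each of the 6 class II genes in each of the 44 rats (y axis, log2 of the value plus 1; x axis, group), with a bar at the group median. Rats 3989 and 3999 of AV and 4070 of AA are marked and lie above the other 41 rats for Cd74 and the 4 chains, while for Ciita rat 3994 of ADQ, at 9.29 units, lies above rat 3989, at 5.43 units.

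All 5 of Cd74 and the chain genes were above their highest YNG value in 8 of 12 AV rats, 5 of 11 AA rats and 4 of 11 ADQ rats. The order of medians was AV, AA, ADQ and YNG for Cd74, RT1-Ba, RT1-Bb and RT1-Db1, and AV, ADQ, AA and YNG for RT1-Da. For Ciita it was ADQ, AA, AV and YNG. Neighbors among the older groups overlapped in range for each of the 6 genes.

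On the log2(value + 1) scale the mean of AV exceeded that of YNG by 2.18 ± 0.51 (SE) for Cd74, 2.27 ± 0.59 for RT1-Ba, 2.46 ± 0.59 for RT1-Bb, 2.42 ± 0.51 for RT1-Da, 2.98 ± 0.63 for RT1-Db1 and 0.56 ± 0.38 for Ciita. The median over the 6 genes was 2.35, beside a median of -0.0017 over the 15598 genes tested, of which 10.6% were higher and 10.7% lower in AV at an unadjusted limma p below 0.05. AA exceeded YNG by 0.57 (Ciita) to 2.20 (RT1-Db1), with a median of 1.55 beside 0.00067 over all genes, of which 12.6% were higher and 14.1% lower. ADQ exceeded YNG by 0.61 (Ciita) to 1.74 (RT1-Db1), with a median of 1.27 beside 0.0057, and 13.5% of all genes were higher and 14.6% lower. These 3 comparisons share the YNG rats. The size of the member differences was used in choosing the genes, so nothing is read from it.

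Between the older groups the mean differences were smaller than those between older and young rats. AA was below AV, with a mean log2 difference over the 6 genes of -0.65 ± 0.58 (SE), from -1.02 for RT1-Da to 0.01 for Ciita. ADQ was below AV, with -0.92 ± 0.45, from -1.25 for RT1-Db1 to 0.05 for Ciita. AA and ADQ differed by 0.27 ± 0.40. Of the 11 ADQ rats, 0 were above the AV median of Cd74, RT1-Bb or RT1-Db1, 1 was above that of RT1-Ba and 2 above that of RT1-Da, while 7 were above the AV median of Ciita. Of the 11 AA rats, 2 were above the AV median of Cd74 and RT1-Bb, 3 above that of the other chains and 7 above that of Ciita. The 2 comparisons with AV share the AV rats.

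Much of the spread within AV and AA lay in 3 rats. In AV rat 3999 Cd74 was 4005 units, RT1-Ba 506.6, RT1-Bb 673.9, RT1-Da 893.1, RT1-Db1 488.6 and Ciita 36.03. In AA rat 4070 they were 1691, 277.9, 381.1, 382.5, 296.0 and 12.2 units, and in AV rat 3989 they were 1273, 188.7, 272.6, 368.8, 199.0 and 5.43 units. These were the 3 highest rats for 5 of 5 genes (Cd74 and the chains). The lowest of the 3 exceeded the highest of the other 41 rats 2.85 times for Cd74 (next, rat 4571 at 447.6 units), 3.85 times for RT1-Ba, 3.57 times for RT1-Bb, 4.33 times for RT1-Da and 5.01 times for RT1-Db1. For Ciita the lowest of the 3 was 0.585 times the highest other rat.

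Within their own groups, rat 3999 was 14.1 to 20.5 times the AV median for Cd74 and the chains and 11.5 times for Ciita. Rat 4070 was 10.6 to 21.5 times the AA median and 3.40 times for Ciita. Rat 3989 was 5.14 to 8.45 times the AV median for Cd74 and the chains but only 1.73 times for Ciita, so the 3 rats differed in how far Ciita stood above its group. Rats 3989 and 3999 together held 70.7% of all Cd74 units in AV, 71.4% of RT1-Ba, 71.0% of RT1-Bb, 73.1% of RT1-Da and 75.4% of RT1-Db1. The highest ADQ rat had 238 units of Cd74.

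Without these 3 rats, which were left out after their values were seen, the older groups remained above YNG and lay closer together. The mean log2 difference over the 6 genes went from 2.15 ± 0.48 (SE) to 1.57 ± 0.29 for AV against YNG and from 1.497 ± 0.44 to 1.17 ± 0.31 for AA against YNG. It was 1.23 ± 0.25 for ADQ against YNG, which holds none of them. Between older groups it went from -0.65 to -0.40 ± 0.30 for AA against AV, from -0.92 to -0.34 ± 0.23 for ADQ against AV and from 0.27 to -0.06 ± 0.26 for AA against ADQ. Leaving out rat 4070 alone was enough to bring AA against ADQ to -0.06, and leaving out rat 3999 alone brought AA against AV to -0.32 and ADQ against AV to -0.58.

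**Figure D2:**
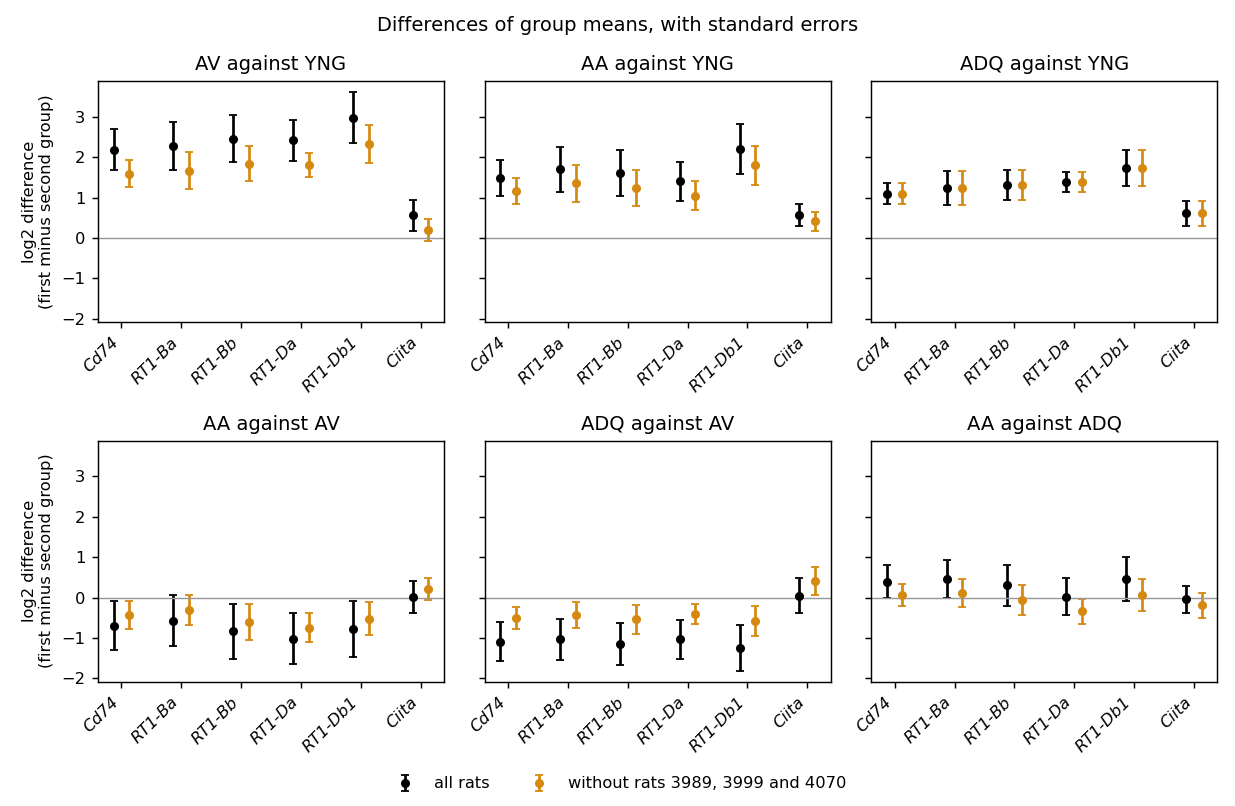
Log2 difference between group means for each class II gene in the 6 comparisons (points, ± SE), with all rats and without rats 3989, 3999 and 4070. AV against YNG falls from a mean of 2.15 to 1.57 and ADQ against AV from -0.92 to -0.34 when the 3 rats are left out.

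The rats were split here by number into 2 series, V1 to V6 and 3890 to 4011 in one and V9 to V12 and 4031 upward in the other. Each series holds 22 rats and some of every group. The labels name no batch, and the numbers have wider gaps elsewhere, as from 4110 to 4566. The share of all units on 1 gene model, AABR07000398.1, was 0.422% to 1.60% in the lower series and 1.71% to 11.1% in the upper. The split by number is thus also a split by this share, and the share is not separate evidence of 2 series. Rats 3989 and 3999 are in the lower series and rat 4070 in the upper. In the upper series the AV rats are numbered 4566 to 4572 and the AA and ADQ rats 4031 to 4110. AA and ADQ against AV there cannot be told apart from a difference between these blocks of numbers. The mean class II difference of AV against YNG was 2.58 in the lower and 1.73 in the upper series, that of AA against YNG 0.88 and 2.03, and that of ADQ against YNG 1.21 and 1.26. AA against AV was -1.70 in the lower series and 0.31 in the upper, AA against ADQ was -0.33 and 0.77, and ADQ against AV was -1.37 and -0.47. Hence, with all rats, the order of AA and AV, and of AA and ADQ, turned between the series. All 3 older groups were above YNG in both. The upper-series mean of AA includes rat 4070, whose mean log2 value over the 6 genes was 7.99. The other AA rats of that series had 4.13, 4.71, 4.71, 4.89 and 4.98. Its AV rats had 4.45, 4.498, 4.77, 5.06, 5.23 and 5.57. Without rat 4070 the lowest and the highest of these AA values lay below those of AV, with overlapping ranges. The AA mean above AV in the upper series thus rested on that rat.

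Cd74 and the chains rose and fell together from rat to rat. Over the 44 rats, Pearson's r of their log2 values ran from 0.87 to 0.96 over the 10 pairs, and Spearman's rho from 0.79 to 0.92. Without the 3 high rats r ran from 0.71 to 0.91. Within groups r was 0.93 to 0.98 in AV and 0.82 to 0.98 in AA, and 0.32 to 0.63 in ADQ and 0.35 to 0.82 in YNG, where the levels spanned a smaller range. For Ciita with the others r ran from 0.54 to 0.59 and rho from 0.35 to 0.44, and without the 3 rats r was 0.14 to 0.25. Within groups that r was 0.62 to 0.70 in AV, 0.75 to 0.85 in AA, -0.40 to 0.12 in ADQ and 0.27 to 0.64 in YNG. The points share libraries and depth, and the correlations are given as a description.

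The 4 chain genes lie within 6 consecutive genes of the reference order on chromosome 20, with RT1-Db2 and Arrb2-ps between RT1-Da and RT1-Db1, and the order from RT1-Da to RT1-DOa holds 16 genes, of which 12 were measured. The 8 others of that stretch, described here for their position, did not show the same 3 rats. RT1-DOb, the β chain of the DO molecule that modulates DM, was 25.5 and 20.2 units in rats 3989 and 3999 and 4.89 units in rat 4070, against a highest value of 15.2 units in the other 41 rats. RT1-DMa was 520.3, 334.0 and 345.7 units in rats 3989, 3999 and 4070, with a highest value of 644.8 units elsewhere. RT1-DMb was 133.4, 210.4 and 139.0 units, with 207.5 units elsewhere. Thus for both DM chains at least 2 of the 3 rats lay within the range of the others.

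Among the class I peptide genes of the same stretch, Tap1, a subunit of the peptide transporter, was 175.5, 359.9 and 110.6 units in rats 3989, 3999 and 4070, with 269.6 units as the highest other value. Psmb9, an immunoproteasome subunit, was 103.8, 148.7 and 58.7 units, with 92.0 units elsewhere. In rat 4070 neither gene stood above the other rats. RT1-DOa was at 0 at the median of each group and at 9.78 units in rat 3999 and 1.96 units in rat 4070. Tap2 stood above the other 41 rats in 0 of the 3, and Psmb8 in 1. The log2 values of RT1-DMa and RT1-DMb had r of 0.08 and 0.15 with the mean of the class II members over the 44 rats.

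**Figure D3:**
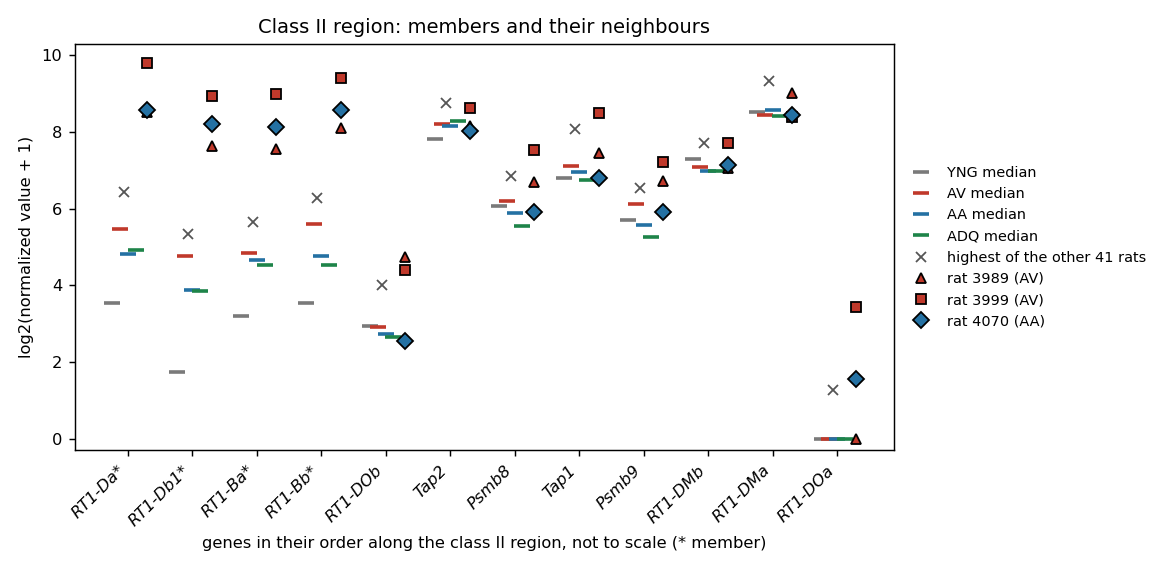
Normalized levels (log axis) of the measured genes from RT1-Da to RT1-DOa in their order along the chromosome, with group medians, the highest of the other 41 rats (×) and rats 3989, 3999 and 4070. The 3 rats lie above the cross for the 4 class II chain genes only, and for RT1-DMa and RT1-DMb they lie below it except rat 3999 for RT1-DMb, at 210.4 units against 207.5.

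The genes most like the class II genes over the 44 rats, among 13578 genes with a mean of at least 20 units outside the lists, were LOC103689965 (r = 0.88) and the complement gene C3 (r = 0.85). Then came C4a (0.79), Lgals3bp (0.75), C4b (0.73), C2 (0.73), Fcrl2 (0.67), Itgb2 (0.66), Tm4sf1 (0.65) and Cdh5 (0.64). C3, C4a, C4b and C2 encode complement components, Itgb2 an integrin β chain of leukocytes and Cdh5 an endothelial cadherin. Without the 3 high rats r was 0.76 for LOC103689965, 0.78 for C3, 0.66 for C4a and C4b, 0.57 for Fcrl2 and Itgb2, 0.52 for C2 and Tm4sf1, 0.49 for Lgals3bp and 0.46 for Cdh5. With group means subtracted the 5 highest were LOC103689965 (0.81), C3 (0.75), Lgals3bp (0.69), C2 (0.66) and C4a (0.64). Spearman's rho was 0.78 for LOC103689965 and 0.77 for C3.

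LOC103689965 had medians of 425.3 units in YNG and 919.2 units in AV, and of 750.9 units in AA and 694.9 units in ADQ, with 2180, 3150 and 2251 units in rats 3989, 3999 and 4070. C3 had medians of 418.7, 911.0, 797.0 and 732.0 units in the same order of groups. In the 3 rats C3 was 1321, 3710 and 1155 units. C4a had medians of 63.9, 192.1, 138.3 and 127.8 units and was 752.0, 422.4 and 366.0 units in the 3 rats. For each of these genes the order of group medians was that of Cd74. These correlations were found by searching all genes and share depth and library with the class II values.

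The 3 rats did not share one pattern of markers of other immune cells, measured here as the summed level of lists of named genes. The microglia list (13 of 14 genes measured, all tested) had sums of 5121 to 9075 units in YNG, 6355 to 13280 in AV, 5792 to 9618 in AA and 5578 to 7475 in ADQ. Rat 3989 had 13280 units, rat 3999 had 9661 and rat 4070 had 8678, that is 1.86, 1.36 and 1.22 times the median of the other 41 rats. The members of the list differed in rat 4070. The defining genes Aif1 and Cx3cr1, at 183.5 and 480.4 units, were near their AA medians of 178.5 and 460.8, while Itgam, at 332.7 units against a median of 250.0, was at its AA maximum. The complement genes C1qa, C1qb and C1qc of the list, at 1835, 1131 and 1054 units, were also at their AA maxima and ranked 2, 4 and 4 of 44, and Gpr34, at 74.4 units, ranked 41. Of the 13 genes, 6 were higher in AV than YNG (10.6% of all genes were), 9 were lower in ADQ than AV (5.9% of all genes) and 4 were lower in AA than AV (3.1% of all genes) at an unadjusted limma p below 0.05. Their part in the class II result was not tested.

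The list of T and NK cell genes (9 of 14 measured, 5 tested) ran from 12.0 to 125 units in YNG, 8.56 to 1395 in AV, 13.7 to 134 in AA and 10.1 to 107 in ADQ. It was 662.1 units in rat 3989 and 468.9 in rat 3999, which are 10.7 and 7.57 times the median of the other 41 rats, and 13.7 in rat 4070, the lowest of AA. Prf1, the pore protein perforin, was 228.3, 198.9 and 0.978 units in these rats, and its highest value, 460.7 units, was in AV rat 4009, where Cd74 was 246.3 units. Cd3e, a T cell receptor chain, was 159.4, 26.7 and 0.978 units. In rat 4070 the low sum came mostly from Cd3e, whose AA median was 43.6 units, while Cd27 was 8.81 units against an AA median of 6.79, and Cd8a and Gzma were 0.978 units each against medians of 0. Of the 5 genes tested, 4 were higher in AV than YNG, beside 10.6% of all genes, and 4 were lower in AA and 4 in ADQ than in AV, beside 3.1% and 5.9%. Their part in the AV levels was not tested.

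Markers of other cells that carry class II molecules gave few usable values. The dendritic cell list (6 of 9 measured, 4 tested) ran from 149.9 to 216.8 units in YNG, 129.3 to 269.4 in AV, 165.6 to 406.6 in AA and 161.0 to 221.4 in ADQ. Rats 3989, 3999 and 4070 had 233.0, 244.5 and 185.9 units, within the range of the other rats, with Itgax at 16.0, 9.13 and 0 units. Their sums ranked 4, 3 and 30 of 44, so rats 3989 and 3999 were above every YNG and ADQ rat and rat 4070 was not. Flt3 was 86.8, 93.9 and 77.3 units, Zbtb46 was 52.8, 80.2 and 78.3 units, and Clec9a was 3.77, 12.4 and 10.8 units in the 3 rats. Flt3, Zbtb46 and Clec9a had their highest values in other rats, while Clec10a of the same list was 70.8 units in rat 3989, its highest value, 48.9 in rat 3999 (rank 3) and 17.6 in rat 4070 (rank 40). Of 8 B cell genes listed, 2 were measured, and the defining genes Ms4a1 and Cd79a were not analysed here. The sum of these 2 was 86.8, 174.7 and 101.8 units in the 3 rats, with ranges of 37.6 to 97.8 in YNG, 42.8 to 174.7 in AV, 39.8 to 111 in AA and 45.3 to 90.9 in ADQ. In the 3 rats it ranked 11, 1 and 4 of 44 and was 1.45, 2.92 and 1.70 times the median of the other 41 rats. Their part was not tested.

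The list of border macrophage genes (7 of 8 measured, 5 tested) ran from 98.6 to 154 units in YNG, 72.8 to 231 in AV, 76.8 to 195 in AA and 88.0 to 207 in ADQ. It was 231.1, 197.6 and 101.8 units in rats 3989, 3999 and 4070. Mrc1, a mannose receptor, was 51.9, 47.6 and 17.6 units, Cd163, a hemoglobin scavenger receptor, was 23.6, 28.7 and 8.81 units, and Lyve1 was 89.6, 30.7 and 31.3 units. Thus rats 3989 and 3999 were high for this list and rat 4070, ranked 31 of 44, was not. The list of monocyte and neutrophil genes (6 of 8 measured, 2 tested) was 726.3, 503.4 and 355.2 units in these rats, beside 248.6 to 580.1 in YNG, 303.9 to 726.3 in AV, 288.8 to 555.6 in AA and 290.9 to 512.4 in ADQ. S100a8 was 105.6, 2.61 and 0 units and S100a9 35.8, 1.96 and 0 units. Neither list was tested for a part in the class II levels.

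Rat 3989 also stood apart in lists of other tissue components. Its red blood cell genes (4 of 6 measured) summed to 90350 units, 11.0 times the median of the other 41 rats, with Hba-a1 at 26690 and Hba-a2 at 32850 units, and in rats 3999 and 4070 the sums were 11650 and 6333. The red blood cell sums ran from 2365 to 26490 units in YNG, 3679 to 90350 in AV, 3769 to 26740 in AA and 3318 to 13920 in ADQ. Endothelial, meningeal, astrocyte and oligodendrocyte sums in rat 3989 were each the highest of all 44 rats, at 2.12, 2.16, 2.20 and 2.42 times the median of the other 41. Its granule cell sum, 6244 units, ranked 42 of 44 and was 0.577 times that median. Rat 3999 had an astrocyte sum 1.59 times the median of the others and a granule cell sum 1.15 times. For rat 4070 the astrocyte sum was 0.948 times, the meningeal sum, the lowest of all 44, 0.704 times and the granule cell sum 1.02 times. The choroid plexus sum was 214.0, 68.9 and 89.8 units in the 3 rats and reached 1395 units elsewhere in AV. The part of tissue composition in the class II levels of rat 3989 was not tested.

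Some of these lists also moved with the groups. All counts here are at an unadjusted limma p below 0.05, beside 10.6% of all genes higher and 10.7% lower in AV against YNG, 12.6% and 14.1% in AA against YNG, 13.5% and 14.6% in ADQ against YNG, and 3.1% lower in AA and 5.9% lower in ADQ against AV. Of 6 endothelial genes 5 were higher in AV than YNG, 2 were higher and 1 lower in AA than YNG and 1 was higher in ADQ than YNG, and 2 were lower in AA and 4 in ADQ than in AV. Their sums were 3547 to 7132 units in YNG, 4384 to 10260 units in AV, 3861 to 5376 units in AA and 4009 to 5756 units in ADQ. Of 6 oligodendrocyte genes 5, 3 and 1 were higher in AV, AA and ADQ than in YNG, and 0 were lower in AA and 4 in ADQ than in AV. Of 6 astrocyte genes 3 were higher in AV than YNG, 1 was higher in AA, and 1 was higher and 1 lower in ADQ, and 1 each was lower in AA and ADQ than in AV. Of 4 red blood cell genes 0 passed in AV, AA or ADQ against YNG, and 4 were lower in ADQ and 1 in AA than in AV. Of 5 granule cell genes tested 1 was lower in AV than YNG and 2 each in AA and ADQ, and 0 passed against AV. The part of these lists in the class II levels of the groups was not tested.

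**Figure D4:**
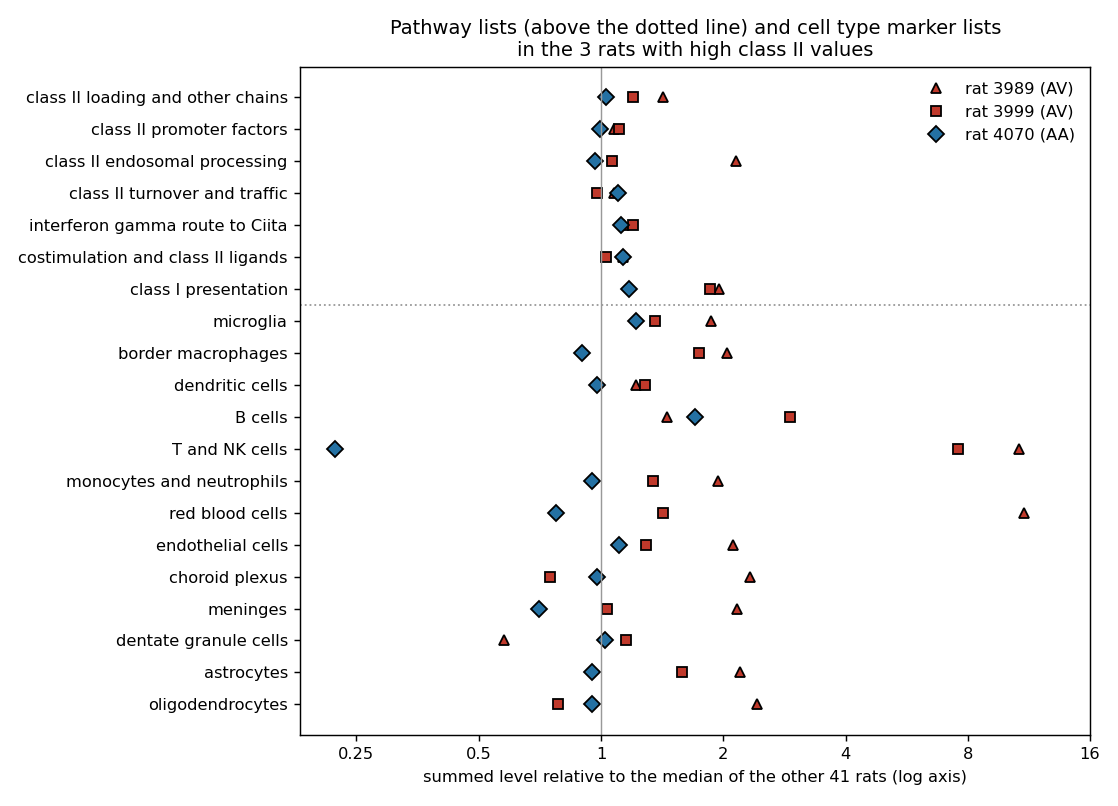
Summed level of each list of marker and pathway genes in rats 3989, 3999 and 4070, relative to the median of the other 41 rats (log axis; 1 is that median). Rats 3989 and 3999 are at 10.7 and 7.57 for T and NK cell genes and rat 4070 is at 0.221, and rat 3989 alone is at 11.0 for red blood cell genes.

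The other genes of antigen presentation were followed in 7 lists with 77 genes, of which 71 were measured and 70 tested with limma across all genes. Of the 70, 20 were genes of class I presentation and 3 were class II loading and other chains. The lists were chosen with earlier results of these data known, so their counts are a description beside the share over all genes. In AV against YNG, 18 of 70 were higher and 1 lower at an unadjusted p below 0.05, where 10.6% of all genes were higher and 10.7% lower, and 6 were higher and 0 lower at a Benjamini-Hochberg adjusted limma p below 0.05, where 1.81% of all genes were higher and 0.539% lower. The median log2 difference of the 70 was 0.16, beside -0.0017 over all genes. Without rats 3989, 3999 and 4070 the count was 11 instead of 19.

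By role, 8 of 20 class I presentation genes were higher in AV than YNG and 0 were lower. Tap2 was higher by 0.46 ± 0.11 (SE; p = 0.000163, adjusted p = 0.0165), Tap1 by 0.60 ± 0.16 (p = 0.000658, adjusted p = 0.0367) and RT1-A1, a class I heavy chain, by 0.53 ± 0.15 (p = 0.00079, adjusted p = 0.0403). Of 10 genes of costimulation and class II ligands 3 were higher. Cd4, the coreceptor that binds class II, was higher by 0.65 ± 0.17 (p = 0.000451, adjusted p = 0.0307). Its lowest, median and highest values were 57.2, 88.1 and 165 units in YNG and 99.2, 125 and 296 in AV. Lag3, an inhibitory class II ligand, was higher by 1.22 ± 0.49 (p = 0.0163, adjusted p = 0.148) and Cd83 by 0.21 ± 0.10 (p = 0.0427, adjusted p = 0.217), the latter at 0.18 and not past the threshold without the 3 rats. The adjusted p of limma was above 0.05 for both.

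On the route from interferon γ to Ciita, Irf1, a transcription factor of that route, was higher in AV than YNG by 0.43 ± 0.11 (limma adjusted p = 0.0283). Irf1 was 127, 157 and 189 units at its lowest, median and highest in YNG and 156, 190 and 393 in AV, where rat 3999 was highest and rat 3989 had 270.7 units. In rat 4070 Irf1 was 159.5 units, below the AA median of 165.6, so this gene did not follow the class II level there.

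Of 12 genes of endosomal processing, 3 were higher in AV. Ctss, which cleaves the invariant chain, was higher by 0.44 ± 0.18, Ctsz by 0.42 ± 0.16 and Lgmn by 0.19 ± 0.07, with limma adjusted p of 0.144, 0.134 and 0.133. Without rats 3989, 3999 and 4070 these differences were 0.22, 0.26 and 0.13 and none passed the threshold, and Ctss was 5183 units in rat 3989 and 1426 in rat 4070. Among 9 promoter factors 1 was higher, the Y box subunit Nfyb by 0.25 ± 0.12 (limma adjusted p = 0.217), which was 0.14 and not past the threshold without the 3 rats. In the list of turnover and traffic genes Cd9, a tetraspanin, was higher by 0.43 ± 0.14 (limma adjusted p = 0.0714) and Ap1s2, an adaptor subunit, was lower with a difference of -0.34 ± 0.13 (limma adjusted p = 0.131). With libraries scaled to equal totals the Ap1s2 call was lost. None of RT1-DMa, RT1-DMb and RT1-DOb passed the threshold in any of the 6 comparisons, with differences of 0.05 ± 0.20, -0.10 ± 0.17 and 0.36 ± 0.34 in AV against YNG.

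In AA against YNG 3 of the 70 genes were higher and 4 lower, beside 12.6% and 14.1% of all genes. The median was 0.063, beside 0.00067 over all genes. At an adjusted limma p below 0.05 1 gene was higher and 0 lower, beside 1.55% and 2.31% of all genes. Tap2 was higher by 0.43 ± 0.11 (limma adjusted p = 0.0371), Crebbp, a coactivator, by 0.33 ± 0.15 (0.140) and Cd9 by 0.28 ± 0.14 (0.186). Ctsh, Cd63, RT1-S3 and Mif, a ligand of Cd74, were lower with a difference of -0.35 ± 0.14, -0.32 ± 0.16, -0.26 ± 0.10 and -0.32 ± 0.16, with limma adjusted p of 0.0983, 0.184, 0.113 and 0.184. With libraries scaled to equal totals none of these 4 calls held, and 22 of the 70 genes were higher and 0 lower.

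In ADQ against YNG 5 genes were higher and 9 lower, beside 13.5% and 14.6% of all genes, with a median of -0.0059 beside 0.0057. At an adjusted limma p below 0.05 2 were higher and 0 lower, beside 3.12% and 3.96% of all genes. Tap2 was higher by 0.43 ± 0.11 (limma adjusted p = 0.0235) and Jak1, a kinase of the interferon γ receptor, by 0.26 ± 0.06 (limma adjusted p = 0.0198). Crebbp, Sppl2a, an intramembrane protease that degrades the stub of Cd74, and Nfyb were also higher, by 0.41 ± 0.15, 0.40 ± 0.18 and 0.28 ± 0.12. The lower genes of the named set were Ctsh, Cd63, Ifi30, Psmb10, RT1-T24-4, Ap1s2 and Rfxank, with a difference of -0.22 (Rfxank) to -0.46 (Cd63), with limma adjusted p from 0.0626 to 0.164. With equal totals 16 genes were higher and 2 lower, and of these named genes only Ctsh and Cd63 kept their call. Rfx5, the RFX subunit that binds the X box, had medians of 498.9, 514.5, 587.3 and 513.5 units in YNG, AV, AA and ADQ and passed no threshold.

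Between the older groups the called pathway genes were nearly all lower in treated rats. In AA against AV 15 of 70 were lower and 0 higher, beside 3.1% and 1.4% of all genes, and in ADQ against AV 23 were lower and 1 higher, beside 5.9% and 3.42%. The medians were -0.11 and -0.17, beside 0.00093 and 0.0081 over all genes. After adjustment by limma 0 of the 70 passed in either, and 0% of all genes did. Without the 3 rats 3 genes were lower in AA and 10 in ADQ, and leaving out rat 3999 or 3989 alone left 3 or 5 for AA.

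Of the 20 class I presentation genes, 9 were lower in AA and 12 in ADQ than in AV. Psmb9 was lower with a difference of -0.57 ± 0.19 in AA (p = 0.00443, limma adjusted p = 0.999) and with a difference of -0.77 ± 0.19 in ADQ (p = 0.000195, adjusted p = 0.134). RT1-CE5, a class I heavy chain, was lower with a difference of -0.36 ± 0.16 in AA and -0.66 ± 0.16 in ADQ, the former at -0.24 and not past the threshold without the 3 rats. Nlrc5, the class I transactivator and a relative of Ciita, was lower in ADQ with a difference of -0.995 ± 0.26 (p = 0.000425, limma adjusted p = 0.185). Its group medians were 12.7, 21.9, 19.7 and 12.2 units in YNG, AV, AA and ADQ. Psmb8 was lower in AA with a difference of -0.48 ± 0.21 with all rats and was at -0.32 and not past the threshold without the 3 rats.

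Irf1 was lower than in AV with a difference of -0.34 ± 0.11 in both AA and ADQ (limma p = 0.00330 and 0.00336, adjusted p = 0.936 and 0.266). Its lowest, median and highest values were 142, 166 and 192 units in AA and 138, 167 and 191 in ADQ. Ifngr1, a chain of the interferon γ receptor, was lower in ADQ with a difference of -0.22 ± 0.08, and Jak1 was the 1 gene that was higher there, by 0.17 ± 0.06. Of the endosomal proteases Ctsc was lower in AA with a difference of -0.43 ± 0.12 and in ADQ with a difference of -0.34 ± 0.12. Ctsh was lower in AA with a difference of -0.27 ± 0.13, and Ctsz and Lgmn in ADQ with a difference of -0.42 ± 0.16 and -0.19 ± 0.07. Without the 3 rats these last 3 values were -0.13, -0.26 and -0.13 and did not pass the threshold.

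The other named genes were Rab27a, lower with a difference of -0.26 ± 0.13 in both AA and ADQ, Cd63, lower with a difference of -0.37 ± 0.15 in ADQ, Cd4, lower with a difference of -0.37 ± 0.17 in AA, and Icam1 and Lag3, lower with a difference of -0.38 ± 0.16 and -1.02 ± 0.48 in ADQ. Without the 3 rats none of these passed the threshold. Rab27a was then -0.20 in AA and -0.18 in ADQ, Cd63 -0.26 and Icam1 -0.18, while Cd4 at -0.32 and Lag3 at -1.02 were of about the same size as with all rats. In AA against ADQ 2 of 70 genes were lower and 0 higher, beside 2.4% and 2.13% of all genes, and with array weights 7 were higher and 1 lower. These 2 were Jak1, lower with a difference of -0.22 ± 0.06, and Socs1, a feedback inhibitor of JAK kinases, lower with a difference of -0.61 ± 0.25. After adjustment by limma 0 of them passed, with adjusted p of 0.981 for both, and the median over the 70 genes was 0.034 beside -0.0032 over all genes.

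**Figure D5:**
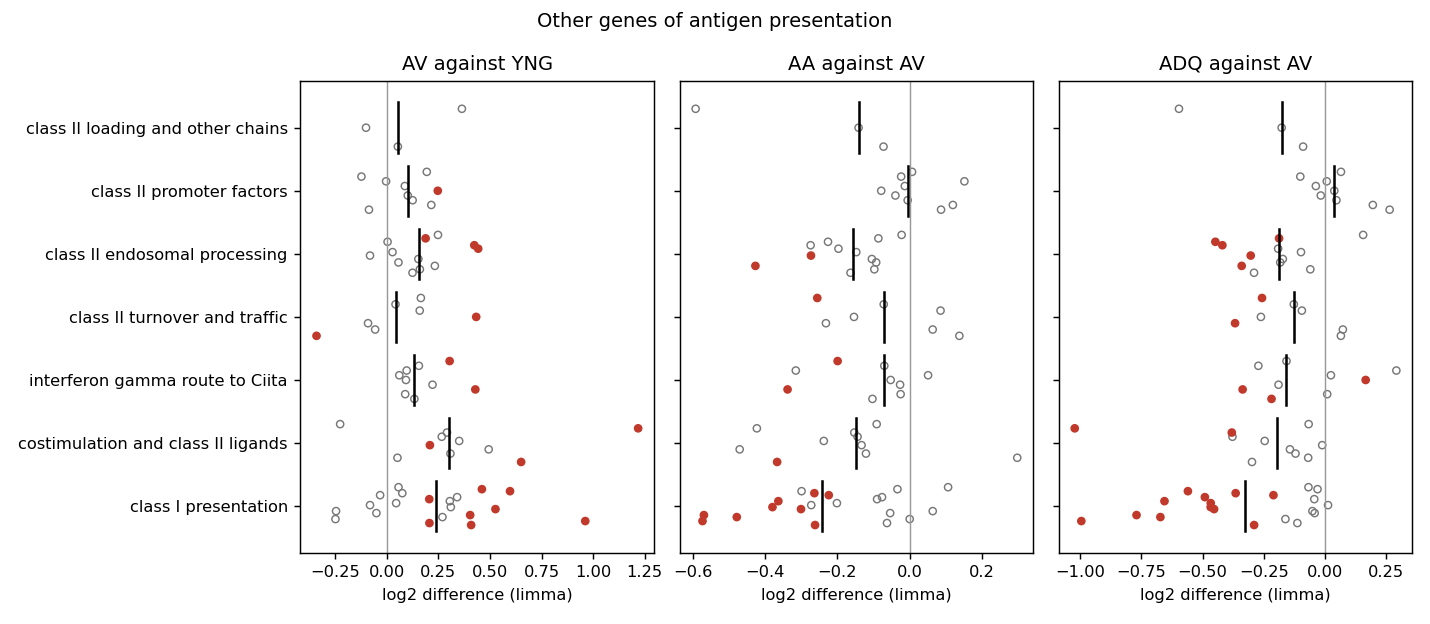
Limma log2 difference of each of the 70 other pathway genes by list in AV against YNG, AA against AV and ADQ against AV (points; filled, unadjusted p below 0.05; bar, list median). Filled points are mostly above 0 in AV against YNG (18 higher, 1 lower) and below 0 in the other panels (15 lower in AA, 23 lower and 1 higher in ADQ).

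The deposited table splits some of these genes over several rows, with no transcript named. RT1-Da had 1 row, Cd74 2, RT1-Ba 3, RT1-Db1 5 and RT1-Bb 6, and the rows were summed. The row that holds 69.0% of all RT1-Db1 units took a median share of 3.04% of them in YNG rats and 48.6% in AV rats, and of 69.97% in AA rats and 3.80% in ADQ rats. With that row alone RT1-Db1 would be higher in ADQ than YNG by 0.51 instead of 1.74 and higher in AA than ADQ by 2.23 instead of 0.47. For Cd74 the largest row took a median of 74.6% to 76.2% in each group.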

How the data were processed

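RNA from the DG of 44 rats was sequenced after poly(A) selection. The authors aligned reads to rn6 with STAR 2.5.3a in Partek Flow and normalized them by the median ratio method of DESeq2. The deposited values are a signal per row, that is estimated reads divided by a library factor, and 0 sample columns were left unused. The annotation is not given in the sources used here. Reads were aligned to a genome of another strain (BN), and class II alleles differ between strains. The effect on the counts of each chain was not tested.

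The 24694 rows were summed to 18347 gene IDs. Estimated reads per library, from the size of 1 read in low values, ran from 10166556 to 24328321. Genes with a mean of at least 5 units (15598) entered limma 3.58.1 (R 4.3.3) on log2(value + 1) with trend, 1 fit for the 4 groups, two-sided, with the unadjusted p of 0.05 of the study's methods as threshold and the Benjamini-Hochberg p beside it. The test was checked on simulated normal values that had the same spread in each group and no outlying rats. That check does not cover groups of unequal spread or single high rats, as seen here. As the values are not counts, no count model was used.

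The members and lists were chosen with earlier results of these data known. Named were the members, up to 3 called genes with the smallest p per list and comparison, the 10 and 5 genes most like the members (mean of at least 20 units), and the sums and first 3 genes of each marker list; genes of the class II region were added for their position, and Prf1, Cd27, Cd8a, Gzma, C1qa, C1qb, C1qc, Gpr34, Clec10a, Itgax, Rfx5 and the medians of list genes in the 3 high rats after their values were seen. Some listed genes are not reported here. Alternatives were scaling, pseudocount, filter, rows, rat series, groups in the fit, array weights, threshold and each rat left out. The labels name another sequencer than the methods do. Figures were drawn with matplotlib 3.10.9.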

Additional observations from a re-analysis of the deposited data

Results flagged for a closer look

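In YNG (10 rats), 41 values on the log2(value + 1) scale were screened by Dixon's ratio for a rat that stood apart. The ratio is the gap to the nearest rat over the range of the group on that scale, with a critical value of 0.466. A gap near 0 units counts for more on that scale than in the units given below. Chance alone flags about 1 group in 20, and 3 of 41 were found. RT1-Ba had a ratio of 0.612, with rat V12 at 0 and the next at 4.49 units, where 1 read in V12 is worth 1.09 units. RT1-Bb had a ratio of 0.490, with rat V2 at 0.702 and the next at 4.35 units, and 0.702 units is 1 read in that library. Cd9 had a ratio of 0.585, with rat V6 at 778.5 and the next at 571.4 units. The older groups have more than 10 rats and were not screened.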

How the results depend on the processing

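The mean class II difference kept its direction for AV, AA and ADQ against YNG in each alternative tried. Leaving out each rat in turn gave 1.81 to 2.31, 1.17 to 1.68 and 1.09 to 1.31 for these, -0.97 to -0.32 for AA against AV, -1.08 to -0.58 for ADQ against AV and -0.06 to 0.45 for AA against ADQ. Differences of group medians, added after seeing the data, were 1.68, 1.26, 1.17, -0.42, -0.51 and 0.09.

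The number of the 70 pathway genes past the threshold moved more. For AV against YNG it was 19, and 12 in the upper series of rat numbers, 29 with array weights, 11 without rats 3989, 3999 and 4070 and 6 with adjusted p (14 to 22 with each rat left out). For AA against YNG it was 7, and 22 with equal totals, 22 with array weights and 1 with adjusted p (4 to 8, with 4 in 11 cases). For ADQ against YNG it was 14, and 6 in the upper series, 27 with array weights and 2 with adjusted p (8 to 17, with 8 without rat V9). For AA against AV it was 15, and 6 with equal totals, 3 in the upper series, 7 with array weights, 7 with only the groups compared, 3 without the 3 rats and 0 with adjusted p (3 to 17, with 3, 5, 8 and 9 without rats 3999, 3989, 3983 and 4568). For ADQ against AV it was 24, and 11 in the lower and 12 in the upper series, 11 without the 3 rats and 0 with adjusted p (16 to 27). For AA against ADQ it was 2, and 4 in the lower and 1 in the upper series, 8 with array weights (7 higher, 1 lower), 4 with only the groups compared (2 higher, 2 lower) and 0 with adjusted p (2 to 5, with 5 without rat 3985). The cause was not tested.

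Equal totals moved the median of all genes by 0.10, 0.15 and 0.14 on the log2 scale in AV, AA and ADQ against YNG. The split of higher to lower pathway genes was then 22 to 0 for AA and 16 to 2 for ADQ against YNG, and with upper quartile scaling it was 3 to 2 and 7 to 7, in place of 3 to 4 and 5 to 9. Of the named pathway genes' values under other settings, 302 kept their call and 40 lost it, 17 of these without the 3 rats and 14 with equal totals. No paired analysis was possible because the labels give the rats no numbers that tie one group to another. With 1 read worth about 1 unit, differences in Ciita and in YNG chain levels of a few units were not resolved.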
